A study of Mus musculus with 2 samples.

Results

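The genes described here are 44 genes of DNA replication and cell division, found by their symbols among the 31053 genes of the matrices. All 44 were present. They were split into 21 S phase genes, 22 G2 and M phase genes, and Stmn1, a microtubule destabiliser that was kept out of both lists. S phase genes are made as a cell enters the cycle and copies its DNA. G2 and M phase genes follow later, and build the spindle, attach chromosomes to it and pull them apart. In the colon crypt, stem cells at the base and the progenitors above them divide, and their absorptive and secretory daughters stop dividing as they mature and move upward.

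Crypt cells isolated from the colon of 4 week old C57BL/6 mice went through 10x Genomics single-cell RNA sequencing, which counts unique molecular identifiers (UMIs) per gene and cell barcode. The control mice carried floxed Mettl14 alleles, written M14(f/f) in the labels. The Mettl14_cKO mice carried the same floxed alleles with Villin-Cre, a recombinase made in gut epithelium; Mettl14 is a subunit of the enzyme that methylates adenosines in RNA. For either genotype the cells of 3 mice were pooled into 1 library, so no test between genotypes was possible; every interval below is a 95% interval for counting error only.

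The control library held 10181 barcodes and 111239295 UMIs, and the Mettl14_cKO library 9225 and 89729527. Of the cells kept, 8709 control and 6051 Mettl14_cKO cells were epithelial-like, with median depths of 10409 and 8711 UMIs. The epithelial marker Epcam was at 2989 and 1882 counts per 1000000 UMIs (CPM) in them, and the leukocyte gene Ptprc at 0.324 and 0.485 CPM. Mettl14 itself was at 4.78 CPM in control and 5.05 CPM in Mettl14_cKO epithelial-like cells. A read outside the deleted exons does not check the deletion, and where the reads lie in the transcript was not stated in any source used. Xist, made from the inactive X chromosome, stood at 0.0629 CPM in control and 338 CPM in Mettl14_cKO barcodes, and 4 Y chromosome genes together at 104 and 0.0780 CPM, so genotype and the sex of the mice cannot be told apart. The libraries shared 33 barcodes, 15 of them among the kept cells.

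Promoters of 37 of the 44 members were found in a RefSeq table (GRCm38.p6; 250 bases before to 50 after the start, first listed start of each gene). The searched letters, on both strands, were CCAAT, the cell cycle genes homology region TTTGAA, and TTTGGCGC, TTTGCCGC, TTTCGCGC or TTTCCCGC for E2F. CCAAT was in 17 of 19 G2 and M phase promoters (89.5%) and 12 of 18 S phase promoters (66.7%), against 37.9% of the 27025 promoters of all genes. TTTGAA was in 14 of 19 G2 and M phase promoters (73.7%) and 2 of 18 S phase promoters (11.1%), against 18.1% of all. An E2F sequence was in 8 of 18 S phase promoters (44.4%) and 1 of 19 G2 and M phase promoters (5.26%), against 2.32% of all. These are matches of letters, not sites of binding. The 4 stretches below show these letters in 1 helicase gene of the S phase list, Mcm6 (chr1:128359706-128359905, minus strand), and in 3 genes of the G2 and M phase list that were lower in the Mettl14_cKO library, Top2a (chr11:99024190-99024389, minus), Hmmr (chr11:40733438-40733637, minus) and Ube2c (chr2:164769698-164769897, plus). Each holds 200 bases upstream of the annotated transcripts, 5′ to 3′, with the matches in capitals. ATTGG and TTCAAA are the reverse complements of CCAAT and TTTGAA, and 2 E2F matches overlap in Mcm6. The stretches are shorter than the window that was counted, and that of Ube2c ends 31 bases before the start. Hmmr and Ube2c were counted as holding TTTGAA, which lies in that window but outside the stretches shown.
Mcm6: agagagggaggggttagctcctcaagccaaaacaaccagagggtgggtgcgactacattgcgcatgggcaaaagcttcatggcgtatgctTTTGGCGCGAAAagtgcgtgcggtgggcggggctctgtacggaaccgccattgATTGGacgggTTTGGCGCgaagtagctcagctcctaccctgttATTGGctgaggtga
Top2a: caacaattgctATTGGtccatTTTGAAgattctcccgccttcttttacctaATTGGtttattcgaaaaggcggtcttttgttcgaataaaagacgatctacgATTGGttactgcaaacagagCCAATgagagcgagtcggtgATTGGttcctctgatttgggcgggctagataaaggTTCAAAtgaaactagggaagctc
Hmmr: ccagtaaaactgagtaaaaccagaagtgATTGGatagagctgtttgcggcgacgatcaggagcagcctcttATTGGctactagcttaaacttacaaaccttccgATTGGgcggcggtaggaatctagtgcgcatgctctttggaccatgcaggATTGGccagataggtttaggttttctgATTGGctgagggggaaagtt
Ube2c: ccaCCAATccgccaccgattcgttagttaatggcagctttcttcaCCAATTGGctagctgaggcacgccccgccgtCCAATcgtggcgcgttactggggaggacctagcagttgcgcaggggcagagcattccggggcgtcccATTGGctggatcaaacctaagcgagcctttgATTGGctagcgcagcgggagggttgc

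The first question was how many cells carried the module in each library. Cells were thinned to 3000 UMIs each, which left 6998 control and 4602 Mettl14_cKO epithelial-like cells and left out 1711 and 1449 shallower ones. A cell with at least 3 UMIs of the S list was counted as an S cell, and likewise for the G2/M list. S cells were 22.3% of control cells (21.4 to 23.3) and 19.4% of Mettl14_cKO cells (18.3 to 20.6), a difference of -2.90 percentage points (-4.41 to -1.38). G2/M cells were 25.4% (24.4 to 26.4) and 24.7% (23.4 to 26.0), a difference of -0.722 points (-2.34 to 0.906), whose interval includes 0. The G2/M difference was -2.62 points (-3.93 to -1.31) at 1500 UMIs, -3.83 points with a lenient cell filter and 0.590 points at 6000 UMIs. Cells that were both made up 14.6% and 12.6%. Without thinning the S cells were 44.3% and 41.4%, and the G2/M cells 38.9% and 36.3%.

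The difference in S cells depended on 1 gene, on depth and on the cells kept. With Pclaf left out of the list it was -0.521 points. In cells thinned to 6000 UMIs, which leaves out the shallower cells, it was -0.161 points, with an interval from -2.16 to 1.85. It was -1.14 points without 5 shallow clusters, and -1.09 points with the phase calls of scanpy. It was -4.69 points with a lenient cell filter, -3.6 points with a threshold of 5 UMIs and -3.56 points at 1500 UMIs. In both libraries many cells lay next to the threshold: 1065 control and 750 Mettl14_cKO cells had 2 or 3 UMIs of the S list. No UMI of the S list was found in 45.4% of control and 48.0% of Mettl14_cKO cells, and none of the G2/M list in 52.1% and 54.8%.

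**Figure D1:**
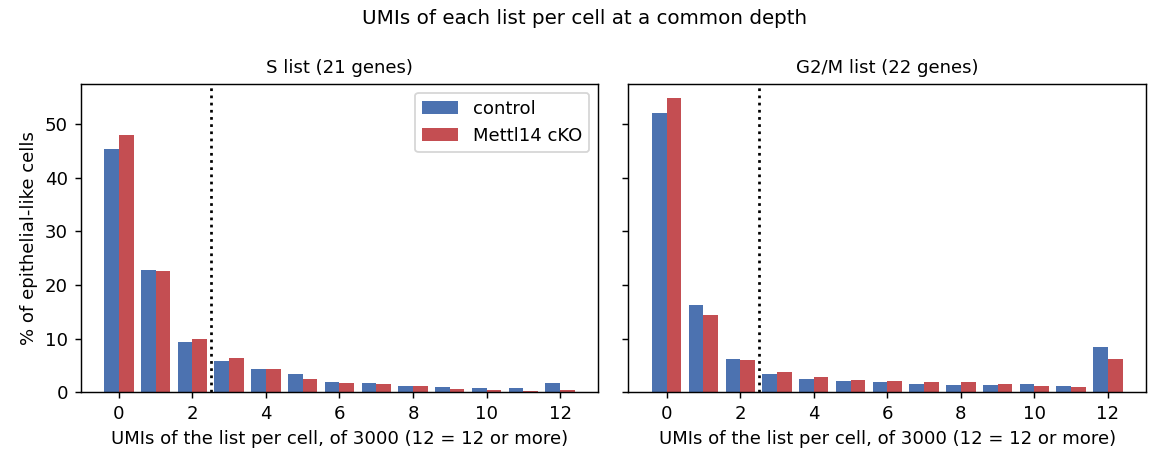
Share of epithelial-like cells (percent, y axis) by the number of UMIs of the S list and of the G2/M list in 3000 UMIs of each cell (x axis), for the control and Mettl14_cKO libraries; the dotted line marks the threshold of 3 UMIs. The distributions lie close together, with 45.4% of control and 48.0% of Mettl14_cKO cells at 0 UMIs of the S list.

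Gene by gene, over all epithelial-like cells, 2 of 44 members were at least 1.5-fold higher in the Mettl14_cKO library (background 14.8% of 15251 genes) and 5 were at least 1.5-fold lower (background 10.1%). The other 37 lay between -0.55 and 0.50 on the log2 scale. The median log2 ratio was -0.12 over the members, -0.06 over the S phase genes and -0.24 over the G2 and M phase genes, against 0.03 over all genes tested. In thinned cells 1 member was higher and 10 were lower, with a median of -0.25 against 0.05 over all genes. The share of all genes past 1.5-fold was not counted in thinned cells, so these 2 counts have no background. Once the level in T or NK-like cells was subtracted, 19 members had a value, 11 of them higher and 6 lower. Those cells carried the module themselves, with the G2/M list at 1137 CPM in control cluster 11. The counts after subtraction therefore cannot be read as a correction of the ratios. Ratios are of CPM plus 1. All 44 members passed the filter of 20 UMIs over both libraries. Fewer cells of a type and less RNA per cell cannot be told apart in such sums.

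Pclaf, which encodes a protein that binds the replication clamp, was the member furthest below the control. Control cells had 135 CPM (133 to 138) and Mettl14_cKO cells 53.7 CPM (52.1 to 55.3), a log2 ratio of -1.32. In cells thinned to a common depth, which gives each cell the same weight, the log2 ratio was -1.55. Pclaf lies on chr9:65890237-65903266, plus strand (GRCm38, GENCODE M21), and other genes share 7.79% of the 60-base words near its transcript ends (500 bases). Pcna, the clamp itself, was at 25.8 and 24.9 CPM, a log2 ratio of -0.05, and its counting intervals overlapped.

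Tk1, the thymidine kinase of the salvage pathway, was the member furthest above the control. Control cells had 32.6 CPM (31.5 to 33.7) and Mettl14_cKO cells 66.7 CPM (64.9 to 68.5), a log2 ratio of 1.01. Tk1 lies on chr11:117815526-117826092, minus strand. The other nucleotide supply genes did not share this difference. Tyms, which makes thymidylate, was at 81.4 and 76.4 CPM, Rrm2, a subunit of ribonucleotide reductase, at 26.1 and 27.5 CPM, its partner Rrm1 at 21.4 and 19.3 CPM, and Dut, which breaks down dUTP, at 113 and 105 CPM.

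Ccne1, the E cyclin that starts S phase with Cdk2, was at 7.90 CPM (7.38 to 8.45) and 14.9 CPM (14.1 to 15.8), a log2 ratio of 0.84. In thinned cells the log2 ratio was 0.45, below the 1.5-fold threshold. Its relative Ccne2 was at 4.38 and 3.72 CPM. Among genes of the replicative helicase and its loading, Mcm2, Mcm3, Mcm4, Mcm5 and Mcm7 had log2 ratios between -0.08 and 0.06, and Mcm6 had -0.36. Gins2, a helicase cofactor, was at 18.6 and 26.1 CPM, a log2 ratio of 0.47. Cdc45 and the licensing factor Cdc6 were at 5.45 and 4.67 CPM and at 3.63 and 4.04 CPM. Hells, a chromatin remodeller, had a log2 ratio of -0.31, Uhrf1, which helps copy DNA methylation, -0.24, and the checkpoint adaptor Clspn -0.06.

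Of the 22 G2 and M phase genes, 4 were at least 1.5-fold lower (background 10.1% of 15251 genes) and none was higher (background 14.8%). Of these 4, 3 bind the spindle. Nusap1, a spindle-associated protein, was at 28.0 and 14.9 CPM, a log2 ratio of -0.87. Hmmr, also spindle-associated, was at 23.9 and 13.5 CPM (-0.78), and Prc1, which bundles midzone microtubules, at 29.2 and 18.9 CPM (-0.60). Top2a, the topoisomerase that untangles DNA, was at 57.2 CPM (55.8 to 58.7) and 35.5 CPM (34.2 to 36.8), a log2 ratio of -0.67. Other spindle genes were nearer to the control: Tpx2 had a log2 ratio of -0.20, and the motors Kif11 and Kif23 had -0.47 and -0.39.

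Genes of the anaphase-promoting complex were below the control without passing the threshold. Ube2c, its ubiquitin-conjugating enzyme, was at 265 and 190 CPM (-0.48), and its activator Cdc20 at 37.9 and 25.6 CPM (-0.55). The mitotic kinase Cdk1 was at 71.6 and 81.1 CPM, while its cyclins Ccnb1 and Ccnb2 had log2 ratios of -0.17 and -0.16 and Ccna2 had -0.44. Birc5, of the chromosomal passenger complex, was at 132 and 188 CPM (0.50), and its kinase partner Aurkb at 22.4 and 21.4 CPM. Of the centromere and kinetochore genes, Cenpf was at 51.3 and 59.8 CPM, Cenpe at 28.4 and 29.1 CPM and Cenpa at 93.0 and 86.7 CPM. Plk1, Aurka and Bub1, kinases of mitotic entry, centrosomes and the checkpoint, had log2 ratios of -0.35, -0.05 and -0.29. Stmn1 was at 341 and 266 CPM (-0.36).

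**Figure D2:**
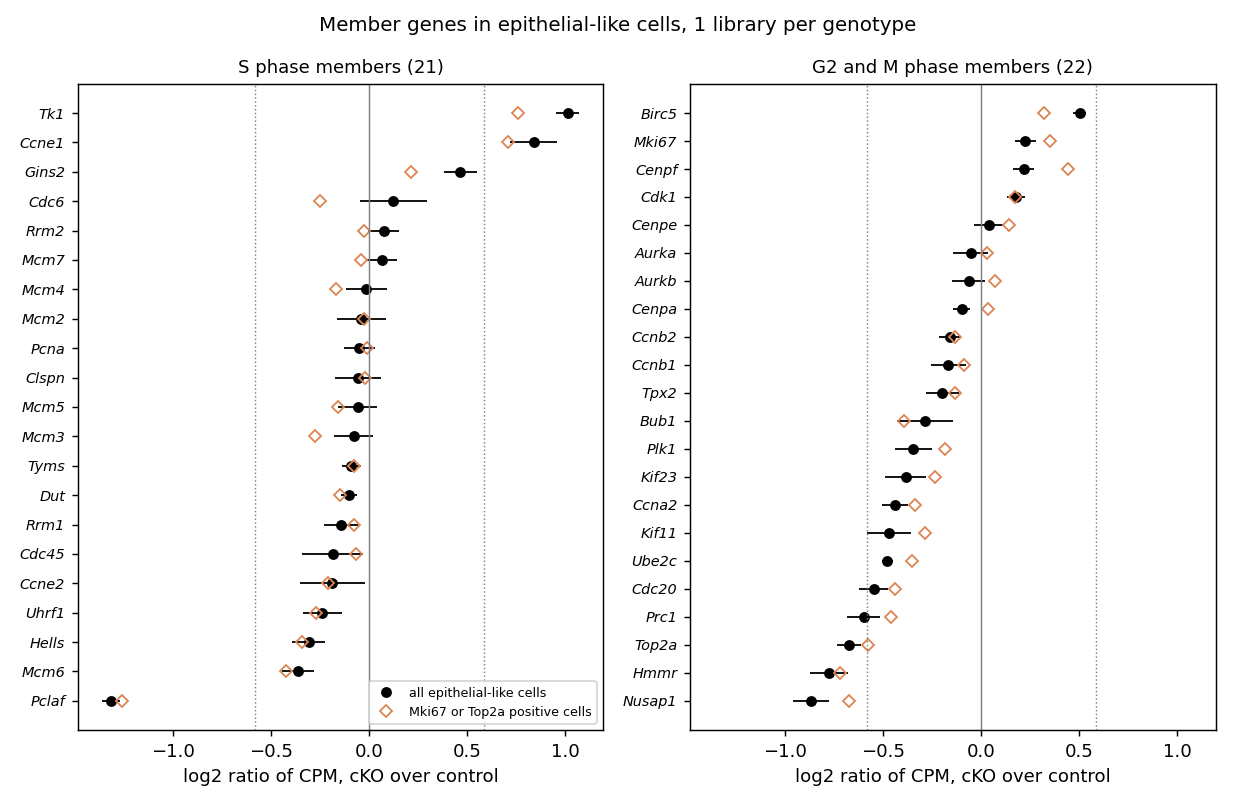
Log2 ratio of CPM, Mettl14_cKO over control (x axis), for each S phase member (left) and G2 and M phase member (right), in all epithelial-like cells (filled circles, with 95% counting intervals) and in cells with an Mki67 or Top2a UMI (open diamonds); dotted lines mark 1.5-fold. Pclaf lies lowest at -1.32 and Tk1 highest at 1.01, and most members lie between the dotted lines.

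Of the 7 members past the threshold, 5 were also past it in counts summed over cells marked as cycling. The marked cells are part of the same epithelial-like cells, so this overlap is no second line of support. The share of all genes past the threshold in both was not counted. The members not past it in marked cells were Prc1 and Top2a, and Top2a helped to choose the cells. Cells with any UMI of Mki67, a protein of the chromosome surface, or Top2a in 3000 UMIs numbered 1269 of 6998 control cells (18.1%; 17.2 to 19.1) and 800 of 4602 Mettl14_cKO cells (17.4%; 16.3 to 18.5), a difference of -0.750 points whose interval runs from -2.17 and includes 0. The difference was -4.28 points with the lenient cell filter and -2.62 points without the shallow clusters. Mki67 and Top2a chose these cells, so their own levels in them are not results. Within them 2 members were at least 1.5-fold higher (background 15.1% of 12598 genes) and 3 at least 1.5-fold lower (background 11.8%). Tk1 was at 76.5 and 130 CPM (0.76) and Ccne1 at 14.7 and 24.7 CPM (0.71). Pclaf was at 334 and 138 CPM (-1.26), Hmmr at 65.4 and 39.2 CPM (-0.72) and Nusap1 at 77.9 and 48.4 CPM (-0.68). Over the thinned counts of these cells 10 members were at least 1.5-fold lower, and neither Tk1 (0.58, just under the threshold) nor Ccne1 (0.35) was past it. No background share was counted there, and the median was -0.31 over the members and -0.03 over all genes.

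Which of the 2 genes marked a cell differed between the libraries. Of the marked control cells, 38.1% had Mki67 only (35.4 to 40.8), 40.2% Top2a only (37.5 to 42.9) and 21.7% both. Of the marked Mettl14_cKO cells, 58.1% had Mki67 only (54.6 to 61.6), 22.5% Top2a only (19.6 to 25.6) and 19.4% both. Over all epithelial-like cells Mki67 was at 52.3 and 61.3 CPM, a log2 ratio of 0.22. The ratio was 0.565 in thinned cells and positive in 9 of 10 alternatives. With a lenient cell filter it was -0.04, so its direction depended on which cells were kept. Top2a was lower under each alternative that gave it a value.

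The balance of S against M phase within marked cells was taken as the UMIs of the S list in percent of those of both lists, without Mki67 and Top2a. It was 34.1% in control (33.3 to 34.9) and 30.8% in Mettl14_cKO cells (29.8 to 31.9), a difference of -3.29 points (-4.60 to -1.98). That difference depended on the genes and cells counted. Pclaf was the S list gene furthest below the control, so leaving out Pclaf alone was bound to move the difference upward. Without Pclaf the balance was 27.9% and 28.6%, a difference of 0.627 points (-0.673 to 1.94). Without Pclaf, Tk1 and Ccne1 the balance was 25.9% and 25.1%, a difference of -0.823 points (-2.10 to 0.468). In cells thinned to 6000 UMIs, with Pclaf, the difference was -0.0553 points (-0.964 to 0.857). In each epithelial cluster with at least 10 marked cells in both libraries the difference went the other way from the pooled one. Most marked Mettl14_cKO cells lay in clusters with few or no control cells, so the pooled value also compares different clusters. The part of this in the pooled difference was not tested. With Pclaf kept, the S share was higher in the Mettl14_cKO library by 8.49 points in cluster 0 (0.869 to 16.2; 173 and 13 marked cells), 16.7 in cluster 1 (8.64 to 24.8; 191 and 13), 19.7 in cluster 9 (7.13 to 32.8; 74 and 10) and 14.1 in cluster 17 (9.77 to 18.5; 93 and 60). In cluster 15 it was -11.1 points (-19.9 to -1.06; 132 and 9 marked cells), and in cluster 14, with 1 marked control cell and 231 marked Mettl14_cKO cells, -54.4 points (-70.8 to -6.92). In clusters 5, 6, 7, 16 and 18 the interval included 0, with 1 to 8 marked Mettl14_cKO cells each. These intervals treat the UMIs of a cell as independent, so with few cells they can be too narrow. Marked cells with more S than G2/M list UMIs were 39.3% (control) and 53.8% (Mettl14_cKO) in cluster 0. They were 19.4% and 30.8% in cluster 1, and 20.4% and 31.7% in cluster 17. In cluster 9 they were 23.0% and 20%, so the 19.7 points there did not show in counts of cells. Over the goblet-like clusters the difference was -3.68 points (-6.30 to -0.993), and 0.306 points without Pclaf. More cells held an excess of G2/M list UMIs than of S list UMIs in both libraries, 58.6% against 29.6% of control cells and 62.8% against 23.4% of Mettl14_cKO cells.

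**Figure D3:**
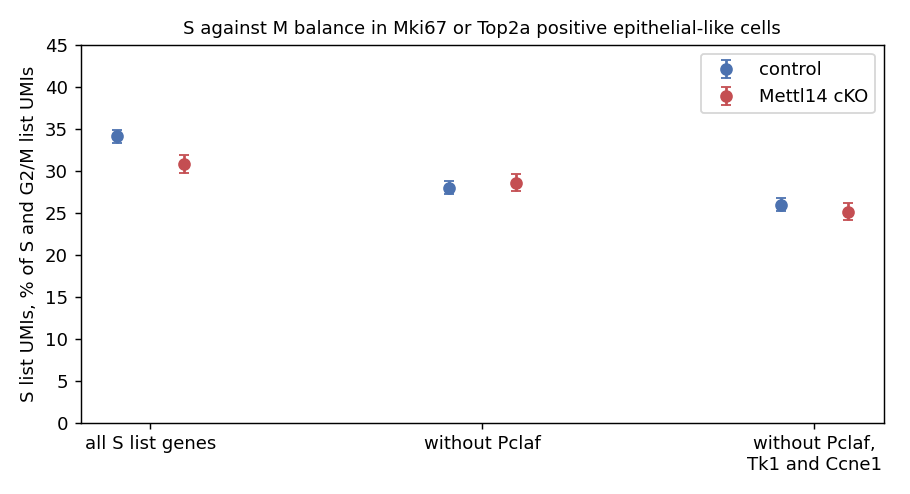
UMIs of the S list as a percentage of S and G2/M list UMIs (y axis) in Mki67 or Top2a positive epithelial-like cells of each library, with all S list genes, without Pclaf, and without Pclaf, Tk1 and Ccne1; bars are exact 95% counting intervals. The libraries stand apart with all genes (34.1% and 30.8%) and overlap without Pclaf (27.9% and 28.6%). Each value pools clusters, and the clusters differ between the libraries.

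Enteroendocrine-like cells of the control carried the module and those of the Mettl14_cKO library hardly did. Enteroendocrine cells are the hormone-making cells of the epithelium. An Mki67 or Top2a UMI was found in 29 of 168 control cells (17.3%, 11.9 to 23.8) and 7 of 236 Mettl14_cKO cells (2.97%, 1.20 to 6.02). Over all epithelial-like cells the shares were 18.1% and 17.4%, so the control share was not particular to this class. When cells were chosen by at least 10 UMIs of Chga, Chgb, Tph1, Pyy and Gcg in place of a cluster, the shares were 17.0% of 153 and 4.2% of 238 cells. Of the 43 members that passed the filter in this class, 42 were at least 1.5-fold lower (background 16.5% of 10248 genes) and none at least 1.5-fold higher (background 26.5%), with a median log2 ratio of -2.63, or -2.61 with genes at 0 UMIs set at the floor of 3 UMIs per class and library. The direction of the share was lower in each of the 12 alternatives, from -28.4 to -3.74 points.

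For Pclaf, 320 UMIs were counted in these control cells and 3 in their Mettl14_cKO counterparts (142 and 1.43 CPM), and for Top2a 173 and 5 (76.6 and 2.38 CPM). Ube2c was at 283 and 11 CPM. Plk1 had 72 control UMIs against 0, at least 22.3-fold lower, and Hmmr 68 and 0, at least 21.1-fold lower. At least 1.5-fold lower were 19 of the 20 S phase genes that passed the filter, with a median log2 ratio of -1.86, and all 22 G2 and M phase genes, with a median of -3.38. Among the S phase genes, Dut was at 138 and 64.8 CPM, Pcna at 29.2 and 15.7 CPM and Rrm2 at 35.9 and 1.91 CPM. Clspn had 31 control UMIs against 0, at least 9.61-fold lower, while Ccne2, at 6.64 and 4.76 CPM, did not pass the threshold. The 29 marked control cells had a median of 13107 UMIs, against 7541 in the unmarked ones, and a median of 64 enteroendocrine marker UMIs at the common depth, against 146. Deeper cells with fewer marker UMIs can be 2 cells under 1 barcode, or cells that have not matured. The part of either in this result was not tested.

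Mature colonocytes, the absorptive cells at the crypt top, carried almost none of the module in either library. Of cells with at least 5 UMIs of Aqp8, Car4, Krt20, Slc26a3 and Tmigd1, 15 of 686 control cells (2.19%; 1.23 to 3.58) and 4 of 168 Mettl14_cKO cells (2.38%; 0.652 to 5.98) had an Mki67 or Top2a UMI. Colonocyte-like clusters gave 2.84% and 3.98%. These shares show the level reached in cells that should lack the genes, at median depths of 11194 and 9592.5 UMIs in the unmarked ones, and the 2.97% of enteroendocrine-like Mettl14_cKO cells lay at that level. The member genes of colonocyte-like cells were not compared further here, since 9 were higher (background 18.4%) and 7 lower (background 26.6%) while the strict cell filter gave 33 and 0, the lenient one 0 and 23, and no removal of doublets 0 and 35.

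Goblet-like cells also carried the module in both libraries, goblet cells being those that secrete the mucus. Goblet-like clusters had 601 of 3707 marked control cells (16.2%; 15 to 17.4) and 222 of 2029 marked Mettl14_cKO cells (10.9%; 9.62 to 12.4). Cells with at least 20 UMIs of Muc2, Clca1, Zg16, Fcgbp and Tff3 gave 13.5% of 2601 and 8.44% of 1327. In the clusters 33 members were at least 1.5-fold lower (background 14.8% of 13754 genes), with a median log2 ratio of -0.90, and none at least 1.5-fold higher (background 12.9%). Pclaf was at 122 and 26.9 CPM there, Top2a at 50.7 and 18.1 CPM, Tk1 at 28.9 and 35.7 CPM. This goblet-like difference depended on which cells were clustered together: under a strict cell filter the share was 2.39 points higher in the Mettl14_cKO library, and with no doublets removed 12 members were lower. Different clusters made up the class in each library, chiefly 6, 7 and 9 for control cells and 13, 19 and 20 for Mettl14_cKO cells. Within clusters 6, 7 and 9 the marked share was not lower throughout in the Mettl14_cKO library. It was 11.3% and 12% in cluster 6, 23.4% and 19.5% in cluster 7, and 12.9% and 22.7% in cluster 9. The Mettl14_cKO cells at the common depth there numbered only 25, 41 and 44. In clusters 13, 19 and 20, 13.6%, 4.88% and 10.1% of Mettl14_cKO cells at the common depth were marked.

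**Figure D4:**
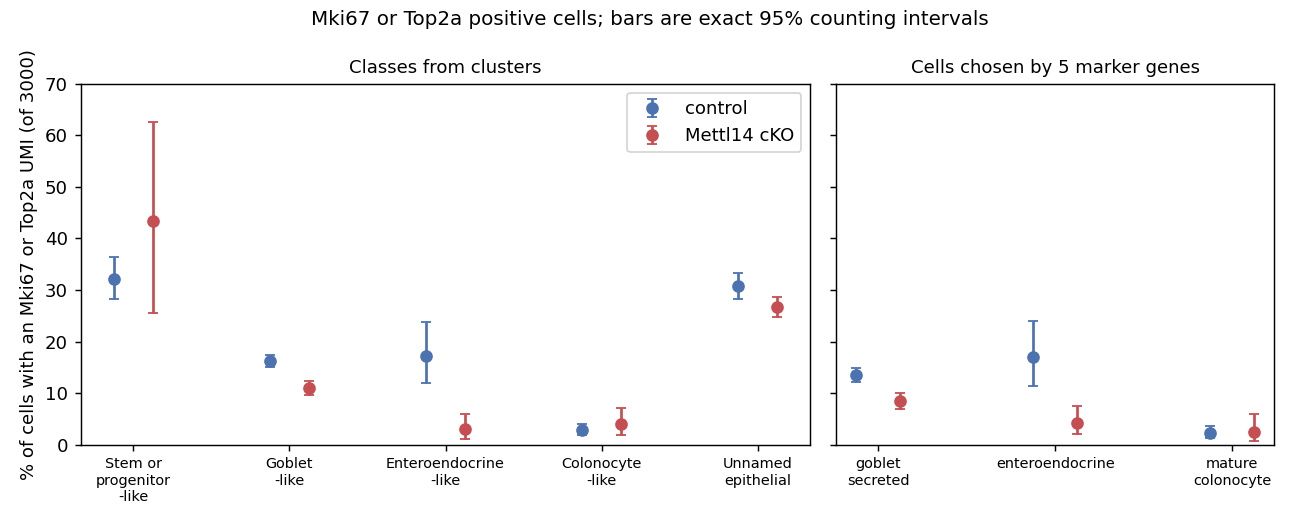
Share of cells with an Mki67 or Top2a UMI in 3000 UMIs (percent, y axis) in classes named from clusters (left) and in cells chosen by 5 marker genes each (right), for both libraries; bars are exact 95% counting intervals. Enteroendocrine cells lie at 17.3% and 2.97% by cluster and at 17.0% and 4.2% by markers, and mature colonocytes lie at 2.19% and 2.38%.

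Stem or progenitor-like cells, led by Ascl2 and Nox1, had 173 of 537 control cells marked (32.2%; 28.3 to 36.4), and 69.1% were S cells. The Mettl14_cKO library had 30 such cells, 13 of them marked (43.3%; 25.5 to 62.6). Tuft-like clusters had 15 of 34 and 2 of 11 marked cells, but of cells with at least 3 UMIs of 5 tuft genes 0 of 12 control cells were marked, an exact upper bound of 26.5%.

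Epithelial clusters left without a name by the naming rule held 546 of the 800 marked Mettl14_cKO cells (68.3%) and 32.9% of the marked control cells. That share depended on the clustering and the cell filter: it was 38.0% of marked Mettl14_cKO cells at resolution 0.5, 31.6% at resolution 2, 23.4% with the libraries clustered apart, 42.0% with cell cycle genes kept in the clustering, 42.8% with no doublets removed and 7.1% with a strict cell filter. Cluster 14 alone, with a median of 2861 UMIs, held 28.9% of the marked Mettl14_cKO cells, and 231 of its 489 cells were marked (47.2%; 42.7 to 51.8). Clusters 25 and 27, with medians of 19285 and 14104 UMIs, held 16.1% and 13%. Cluster 15, the shallow counterpart of the control with a median of 1907 UMIs, had 132 of 204 cells marked (64.7%; 57.7 to 71.3). The share in unnamed cells as a group changed direction with the clustering, so it is given as values: 30.8% of control and 26.7% of Mettl14_cKO cells.

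In these unnamed cells Pclaf was at 184 and 81.5 CPM, Top2a at 101 and 55.7 CPM, Tk1 at 51.2 and 104 CPM, Ccne1 at 9.18 and 21.8 CPM, and Mki67 at 92.9 and 91.6 CPM. Pclaf was lower in the Mettl14_cKO library in 7 of 8 classes, the exception being myeloid-like cells, of which the control had 12. T or NK-like cells had Pclaf at 188 CPM (158 to 223) and 157 CPM (134 to 184), Top2a at 84.2 and 106 CPM and Tk1 at 28.5 and 27.0 CPM, with counting intervals that overlapped for each of these 3.

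**Figure D5:**
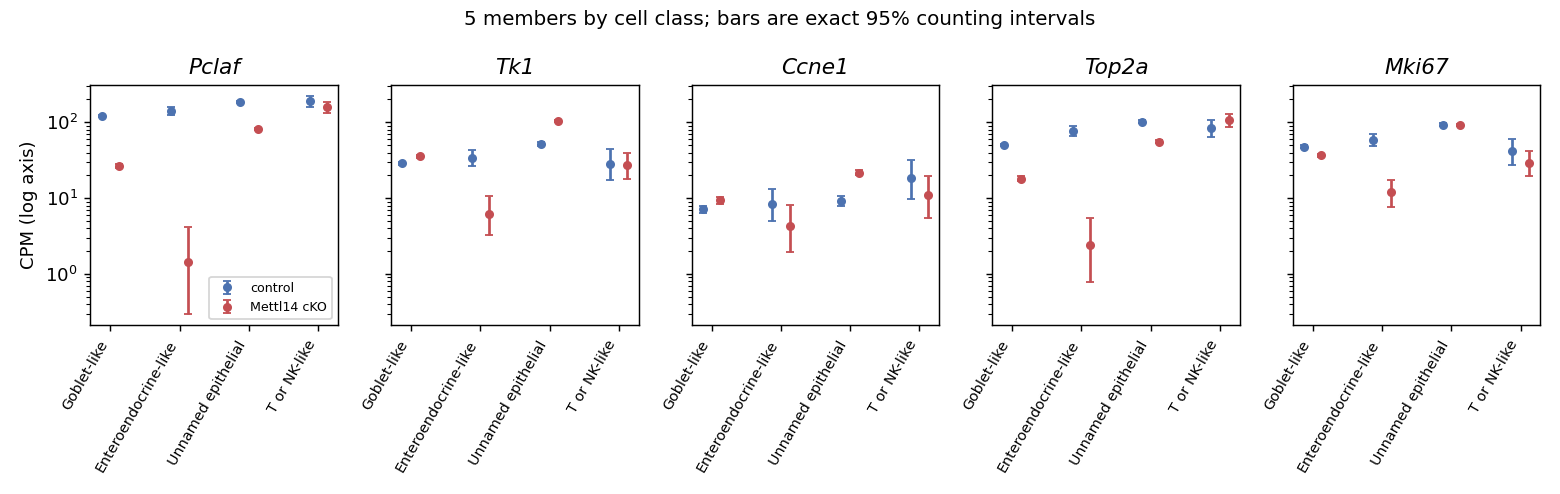
CPM (log axis) of Pclaf, Tk1, Ccne1, Top2a and Mki67 in goblet-like, enteroendocrine-like, unnamed epithelial and T or NK-like cells of each library, with exact 95% Poisson intervals. Pclaf is lower in the Mettl14_cKO library in each epithelial group shown, and Tk1 is higher in unnamed epithelial cells (51.2 and 104 CPM).

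RNA of these genes was also found in barcodes that failed the cell filter, with the S list at 503 CPM and the G2/M list at 918 CPM for control barcodes, and 263 and 553 CPM for Mettl14_cKO barcodes. Their part in the shares above was not tested.

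Other genes of the cell cycle were read against the same background over all epithelial-like cells, 14.8% of genes higher and 10.1% lower. Of 35 further S phase genes, 3 were at least 1.5-fold higher and 1 lower, with a median log2 ratio of 0.02. Fen1, the flap endonuclease of lagging strand synthesis, was at 16.2 and 53.9 CPM (1.67), and Pold1, the catalytic subunit of polymerase delta, at 6.97 and 22.1 CPM (1.54). Msh6, of mismatch repair, was at 7.0 and 11.8 CPM, and Dscc1, of clamp loading for cohesion, at 6.67 and 4.08 CPM. Of 53 further G2 and M phase genes, 3 were higher and 1 lower, with a median of -0.08: Pimreg was at 3.89 and 7.70 CPM, Cks1b at 55.3 and 94.0 CPM, Sgo1 at 12.4 and 19.1 CPM and Cdca8 at 54.3 and 35.1 CPM.

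Of 10 G1 cyclins, kinases and related genes, 2 were higher, Ccnd2 and Mycn (log2 ratios of 1.12 and 0.73). Of 7 inhibitors of cyclin-dependent kinases, 6 passed the filter and Cdkn2a, with 1 and 15 UMIs, did not. Cdkn1a, the p21 inhibitor, was at 181 and 98.7 CPM (-0.87) and Cdkn1b at 48.2 and 31.2 CPM (-0.61), while Cdkn1c was at 10.3 and 17.6 CPM (0.71). Of 20 E2F, pocket protein and MuvB genes, E2f3 was higher at 11.6 and 18.1 CPM and Rb1, the retinoblastoma protein that holds E2F in check, lower at 12.9 and 7.49 CPM.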

How the data were processed

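Raw UMI counts per gene and cell barcode were deposited for both libraries. Cell Ranger 3.0.0 and Seurat 3 are credited to the authors per the submitters' processing notes, while the file headers name Cell Ranger 3.1.0. For the genome build, the annotation and the kit, the sources used here give nothing. The label M14 was taken to mean Mettl14.

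The members and lists were chosen with earlier results of these data known. Barcodes under 500 genes or with 25% or more mitochondrial UMIs were dropped (1027 control, 2100 Mettl14_cKO). Scrublet scores of at least 0.25 removed 76 (0.830%) and 52 (0.730%) more as doublets. Scrublet's own threshold marked 0 and 1 cells, and both the score and its settings were chosen after the data were seen. Both libraries were clustered together with scanpy 1.11.5 (Leiden 0.10.2, resolution 1, 2000 variable genes, 30 components, 15 neighbours, no integration), leaving out members, other cell cycle genes, histones, mitochondrial, ribosomal, gasdermin and Y chromosome genes, Mettl14, Xist and Tsix.

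A cluster was named for a class with at least 3 markers raised 1.5-fold above the rest of its own library and found in at least 10% of cells, where no other class had more among the 10 leading genes. A shallow cluster, with a median depth below that of its library divided by 3, also needed a marker among its 10 leading genes. A first naming rule, on the 50 leading genes, left most epithelial cells unnamed and was replaced after its result and the members' levels by cluster had been seen. A class can therefore differ from one named by another rule. Clusters without a name were taken as epithelial from 50% of the median Epcam level of the named ones. The marker combinations used in place of clusters, and the members followed singly under the alternatives, were also chosen after values were seen.

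Counts were thinned to 3000 UMIs per cell for shares, and summed per class and scaled to CPM for levels. Shares have exact binomial (Clopper-Pearson), CPM exact Poisson and ratios exact conditional 95% intervals; intervals of differences combine the exact bounds. Genes with 20 UMIs over both libraries were compared, with a pseudocount of 1 CPM. With 1 library per genotype there is no test. Named genes were all members, and in each other list up to 3 past 1.5-fold in each direction. The ratios, intervals and thinning were tested on simulated data. Gene positions are from GENCODE M21, which holds 99.6% of the gene IDs. Scripts ran on Python 3.11.15 with scipy 1.17.1, numpy 2.4.6, matplotlib 3.10.9 and pandas 2.3.3. Alternatives covered the cell filters, doublets, clustering, depth, thresholds, lists, pseudocount, count filter, scaling and free RNA.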

Additional observations from a re-analysis of the deposited data

Results flagged for a closer look

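For 8 members the ratio between libraries pointed one way in colonocyte-like and the other way in enteroendocrine-like cells, each at least 1.5-fold and with a counting interval off 1. The log2 ratios in colonocyte-like and enteroendocrine-like cells were 0.70 and -2.21 for Mki67, 1.33 and -2.41 for Birc5, and 0.86 and -2.42 for Cenpf. They were 0.83 and -3.04 for Cenpe, 1.12 and -2.29 for Tk1, and 0.75 and -3.67 for Rrm2. They were 1.5 and -1.22 for Gins2, and 1.05 and -2.79 for Uhrf1. All 8 were higher in colonocyte-like and lower in enteroendocrine-like cells. Of all genes tested, 18.4% were at least 1.5-fold higher in colonocyte-like cells and 16.5% at least 1.5-fold lower in enteroendocrine-like cells. The share of all genes with both was not counted, so the count of 8 has no background. The differences between classes were not tested. Mettl14_cKO colonocyte-like cells held these genes at 10 UMIs (Uhrf1) to 74 (Birc5). With no doublets removed, 0 members were higher and 35 lower in colonocyte-like cells, so this direction depended on which cells formed the class.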

How the results depend on the processing

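No paired analysis was possible because each genotype had 1 library. For the same reason no replicate was left out. The cause of the shifts below was not tested. Alternatives with another random draw, without 5 shallow clusters, and without Pclaf, Tk1 and Ccne1 were chosen after seeing the data.

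The S cell difference was negative in all 12 alternatives, but at 6000 UMIs it was -0.161 points with an interval from -2.16 to 1.85. It was -4.69 points with the lenient cell filter, -1.14 without shallow clusters, -1.09 by scanpy phase and -0.521 without Pclaf. The G2/M cell difference was -3.83 points with the lenient filter and -2.62 at 1500 UMIs. The share of marked epithelial-like cells differed by -4.28 points with the lenient filter and -2.62 without shallow clusters.

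The goblet-like share reversed to 2.39 points with the strict filter. It was -1.44 with the lenient filter, -3.40 at 1500 UMIs, -1.43 with at least 2 marker UMIs, -1.14 with cell cycle genes kept in clustering, -2.94 at resolution 2 and -1.58 with libraries clustered apart. The colonocyte-like share was -3.40 (lenient), -5.43 (no doublets removed), 13.4 (resolution 0.5) and 8.38 (libraries apart). The enteroendocrine-like share was -28.4 at 6000 UMIs and -3.74 with at least 2 marker UMIs. The unnamed epithelial share reversed at 6000 UMIs (0.128), with cell cycle genes kept (5.68), at resolutions 0.5 (1.44) and 2 (10.1) and with libraries apart (6.82), and was -44.9 (strict), -9.99 (lenient) and -36.6 (no doublets removed).

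The S against M balance reversed to 0.627 points without Pclaf. It was -1.53 without shallow clusters, -0.0553 at 6000 UMIs, -5.14 without Dut and Ube2c, -1.54 in cells with both Mki67 and Top2a, and -0.823 without Pclaf, Tk1 and Ccne1.

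Over all epithelial-like cells the members higher numbered 1 with a pseudocount of 10 CPM, 1 in thinned cells and 11 once the level in T or NK-like cells was subtracted, and the members lower 2 with that pseudocount and 10 in thinned cells. In marked cells the higher numbered 1 with that pseudocount and 10 after subtraction, and the lower 10 in thinned cells and 11 after subtraction. Mki67 reversed to -0.036 with the lenient filter. Goblet-like members higher numbered 2 under the strict, lenient and no doublet settings and with subtraction, and those lower 21, 18, 12 and 9 there and 18 with a pseudocount of 10 CPM. Colonocyte-like members higher numbered 33 (strict), 0 (lenient), 0 (no doublets removed), 1 (pseudocount of 10 CPM) and 3 (thinned), and those lower 0, 23, 35, 2 and, with a pseudocount of 0.1 CPM, 12. Enteroendocrine-like members lower numbered 14 of 14 that passed in thinned cells and 17 of 17 after subtraction. The share of all genes past 1.5-fold was not counted under these alternatives.

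T or NK-like cells carried the module themselves (G2/M list at 1137 CPM in control cluster 11), so subtraction left 19 members with a value over all epithelial-like cells, none in colonocyte-like cells, and no value for Pclaf, Top2a, Nusap1 and Prc1. The rarer classes are limited by cell number: the Mettl14_cKO library had 30 stem or progenitor-like cells.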
